A study of Drosophila melanogaster with 8 samples.

Results

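The Mediator complex was followed through its genes in whole adult heads of Drosophila melanogaster. Its members were the probe sets annotated to a single symbol that begins with MED and a number, together with CycC, Cdk8, kto and skd. This gave 27 probe sets of 26 genes, out of 18769 probe sets tested and 11981 genes with a probe set of their own. Each gene was read by its brightest probe set, and only skd had more than 1. The subunits MED9 and MED23 were left out because each shares its probe sets with a neighbouring gene, MED22 was not found by name, and ix, the fly MED29, lies outside the naming rule.

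The HEXIM knockdown flies carried the GMR-Gal4 driver and a UAS-Hexim-RNAi transgene (4 samples), and the others were wild type flies of the W118 strain (WT, 4 samples). The labels describe biological replicates from adult flies kept at 29°C, and in the study's methods each sample pools many heads. GMR-Gal4 acts in differentiating cells of the eye, whereas the RNA came from the entire head, and the WT flies carried neither driver nor hairpin. The array experiment asked how the transcriptome of the head differs when HEXIM is knocked down in the eye.

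Mediator is a large protein assembly that carries signals from DNA-bound activators to RNA polymerase II at the promoter. Its head and middle modules touch the polymerase, MED14 runs through the core as a backbone, and the tail is where many activators dock. A separable kinase module, built from Cdk8, CycC, kto (MED12) and skd (MED13), binds the core reversibly and can block its contact with the polymerase. HEXIM acts one step later, by holding the elongation kinase P-TEFb inactive together with the 7SK RNA. In human cells both steps meet in MED26, which has been linked to the recruitment of elongation complexes that contain P-TEFb. The modules used below follow structures of the yeast and mammalian complexes.

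Each array gave 1 log2 level for each probe set, and precision is limited by the number of arrays. Differences are HEXIM knockdown minus WT on the log2 scale, with the standard error (SE) and the Benjamini-Hochberg adjusted p from limma over all probe sets. Genes or probe sets are said to be called where this adjusted p was under 0.05. Levels of different probe sets are not comparable, since each binds its own target with its own strength. In RNA of whole heads, fewer cells of a type and less RNA in each cell cannot be told apart.

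Hexim itself stood at 7.60, 7.54, 7.52 and 7.77 in the HEXIM knockdown arrays, against 8.14, 7.85, 7.96 and 7.79 in the WT arrays. Its log2 fold change was -0.33 (SE 0.10, limma adjusted p = 0.418), with no overlap between the groups, and hairpin RNA may contribute to this signal. Another set of 3 arrays stood apart across the genotypes, namely HEXIM knockdown replicate 4 and WT replicates 1 and 3. In these, probes in the middle of the GAPDH and Actin control transcripts differed from those at the 3' end by -1.98, -1.75 and -1.95 on the log2 scale, and in the other 5 arrays by -1.08 to -0.86. This distance widens when RNA is shortened, and values without these arrays are given beside the members concerned. The markers of female heads averaged 11.3 to 12.9 in HEXIM knockdown arrays, against 9.21 in WT replicate 3 and 11.8 to 12.2 in the other WT arrays. Photoreceptor markers averaged 12.1 to 12.4 in HEXIM knockdown arrays and 12.3 to 12.6 in WT arrays, and all 7 measured had a log2 fold change below 0, with no overlap between the groups for trpl. The 6 measured glial markers averaged 9.96 to 10.1 in HEXIM knockdown arrays and 10.2 to 10.3 in WT arrays, without overlap, although 2 of the 6 had a log2 fold change above 0 and only moody (-0.60) had separated groups by itself. Fat body markers averaged 10.7 to 11.8 in HEXIM knockdown arrays and 9.29 to 11.2 in WT arrays, and 7 of 8 had a log2 fold change above 0. These 8 include all 4 markers of female heads (Yp1, Yp2, Yp3 and fit), so the 2 lists are not independent. Muscle markers averaged 9.85 to 10.3 in HEXIM knockdown arrays and 10.2 to 10.6 in WT arrays, and 1 of 5, TpnC4, was called (-1.24, limma adjusted p = 0.0156). Haemocyte markers averaged 6.40 to 6.58 in HEXIM knockdown arrays and 6.24 to 6.46 in WT arrays, with separated groups for 1 of 7, PPO2 (0.67). Neuronal markers averaged 8.90 to 9.06 in HEXIM knockdown arrays and 8.90 to 9.01 in WT arrays, and the part of any of these markers in the Mediator values was not tested.

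No Mediator gene was called by limma. Of the 26 genes, 20 had a log2 fold change below 0 (76.9%), which held for 55.4% of all probe sets, and their median was -0.12, against -0.02 over all probe sets. An unadjusted p under 0.05 was reached by 6 members (23.1%), all of them lower in HEXIM knockdown, whereas 7.24% of all probe sets reached it in either direction and 4.4% in the lower one. With probe sets of a mean level below the median left out, 5 of 25 members reached it, beside 10.2% of the 9385 probe sets kept. Only 3 members reached it with a variance prior that follows the signal level (6.62% of all probe sets). When 1 array was left out, 3 to 5 members did (5.31% to 10.4% of all probe sets). Across all probe sets, 0.256% were called, namely 48, of which 27 were higher and 21 lower. For 7 members (26.9%) the highest HEXIM knockdown array was still below the lowest WT array, and no member showed the opposite. The corresponding share over all probe sets was 5.35% in either direction and 3.37% for the lower one. The members with separated groups were MED15, MED16, MED24 and MED25 of the lower tail, MED14 of the backbone, MED17 of the head and MED10 of the middle.

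**Figure D1:**
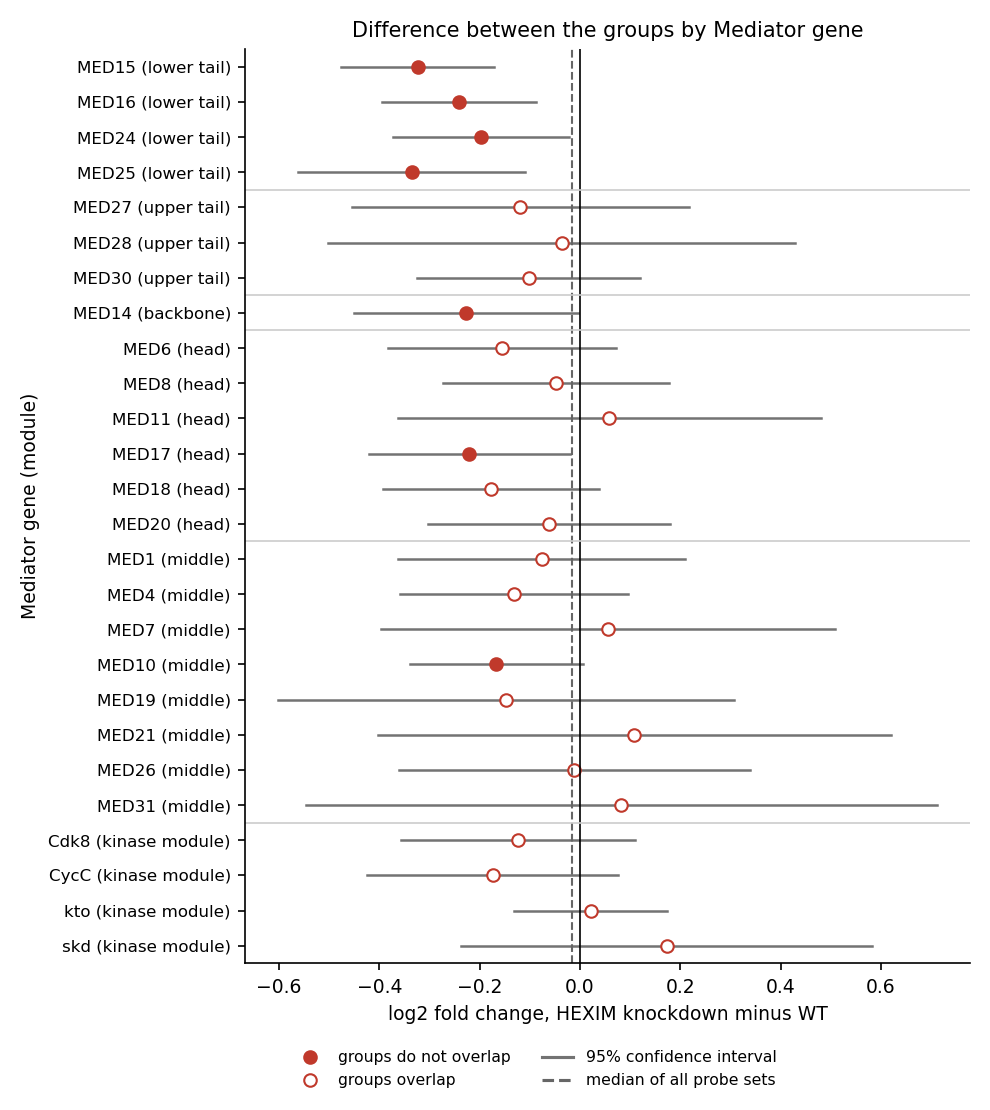
Log2 fold change (HEXIM knockdown minus WT, horizontal axis) of the 26 Mediator genes by module, with the 95% confidence interval from limma; filled points mark genes whose groups do not overlap, and the dashed line the median of all probe sets (-0.02). The 4 genes of the lower tail lie between -0.34 and -0.20, while the other 22 genes spread from -0.23 to 0.17.

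The lower tail is the part of Mediator that many activators bind. Its 4 genes that could be read all lay lower in HEXIM knockdown heads, at 79.3% to 87.2% of the WT level, and all 4 had groups that did not overlap. Their median log2 fold change was -0.28, against -0.09 for the other 22 members, and the difference between modules was not tested. None of the 4 passed the adjusted test.

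MED15, whose counterpart in yeast is the docking site of Gal4 and Gcn4, read 6.66, 6.77, 6.70 and 6.71 in HEXIM knockdown arrays, against 7.05, 7.09, 6.96 and 7.04 in WT arrays. The groups were separated by 0.19 on the log2 scale, the widest distance among the 7 members, and the spread within each group was small (SD 0.05 in both). Its log2 fold change of -0.32 (SE 0.07) left HEXIM knockdown heads at 79.9% of the WT level. This was the lowest adjusted p of all members, at 0.168 from limma, and the exact two-sided permutation test gave p = 0.0286, the smallest that 4 arrays against 4 allow.

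MED25 serves the Rel-type factor Dif in the fly immune response. It read 5.95, 6.01, 6.10 and 6.24 in HEXIM knockdown arrays, against 6.46, 6.31, 6.59 and 6.30 in WT arrays. Its log2 fold change of -0.34 was the most negative of the members (SE 0.10, limma adjusted p = 0.378). The highest HEXIM knockdown value came from replicate 4 and the highest WT values from replicates 1 and 3, so that the 3 arrays of low middle minus 3' level were also the highest of their groups. Within these 3 arrays the difference was -0.28, and within the other 5 it was -0.28 as well. Both had to lie below 0 because the groups did not overlap, and replicate 4 is the only HEXIM knockdown array among the 3.

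MED16, which also takes part in the response to Dif, read 5.34, 5.38, 5.38 and 5.44 in HEXIM knockdown arrays, against 5.70, 5.61, 5.63 and 5.56 in WT arrays. These groups lay 0.12 apart, with a log2 fold change of -0.24 (SE 0.07, limma adjusted p = 0.328). MED24, which forms the base of the lower tail with MED16 and MED23 in mammals, read 7.43, 7.34, 7.37 and 7.27 in HEXIM knockdown arrays, against 7.65, 7.57, 7.43 and 7.54 in WT arrays. Its groups were separated by only 0.0034, between HEXIM knockdown replicate 1 and WT replicate 3, and its log2 fold change was -0.20 (SE 0.08, limma adjusted p = 0.595). The differences within the 5 arrays of higher middle minus 3' level and within the 3 of low level were -0.22 and -0.22 for MED16, -0.18 and -0.28 for MED24, and -0.35 and -0.30 for MED15. Separated groups fix the sign of all these differences, so only their size could vary.

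MED23, the missing member of the lower tail, could only be read together with the neighbouring gene CG3700. The brighter of these shared probe sets averaged 7.79 in HEXIM knockdown arrays and 7.99 in WT arrays, with a log2 fold change of -0.20 (SE 0.12) and overlapping groups. The dimmer one, at a mean of 3.31 in HEXIM knockdown arrays and 3.52 in WT arrays, gave -0.21 (SE 0.09), also with overlap. Neither value can be assigned to MED23 alone.

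Taking the lower tail gene by gene as deviations from its mean over the 8 arrays, the average deviation was -0.17, -0.14, -0.13 and -0.10 in HEXIM knockdown arrays, against 0.19, 0.13, 0.14 and 0.09 in WT arrays. Each HEXIM knockdown array was thus below the mean and each WT array above it. As all 4 genes had separated groups, their averages had to be separated too and add nothing to the single genes. For the 3 genes of the upper tail the average deviation overlapped between the groups, with 0.02 to 0.16 in HEXIM knockdown replicates 1 to 3 and -0.42 in replicate 4, against -0.13 to 0.18 in WT arrays.

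**Figure D2:**
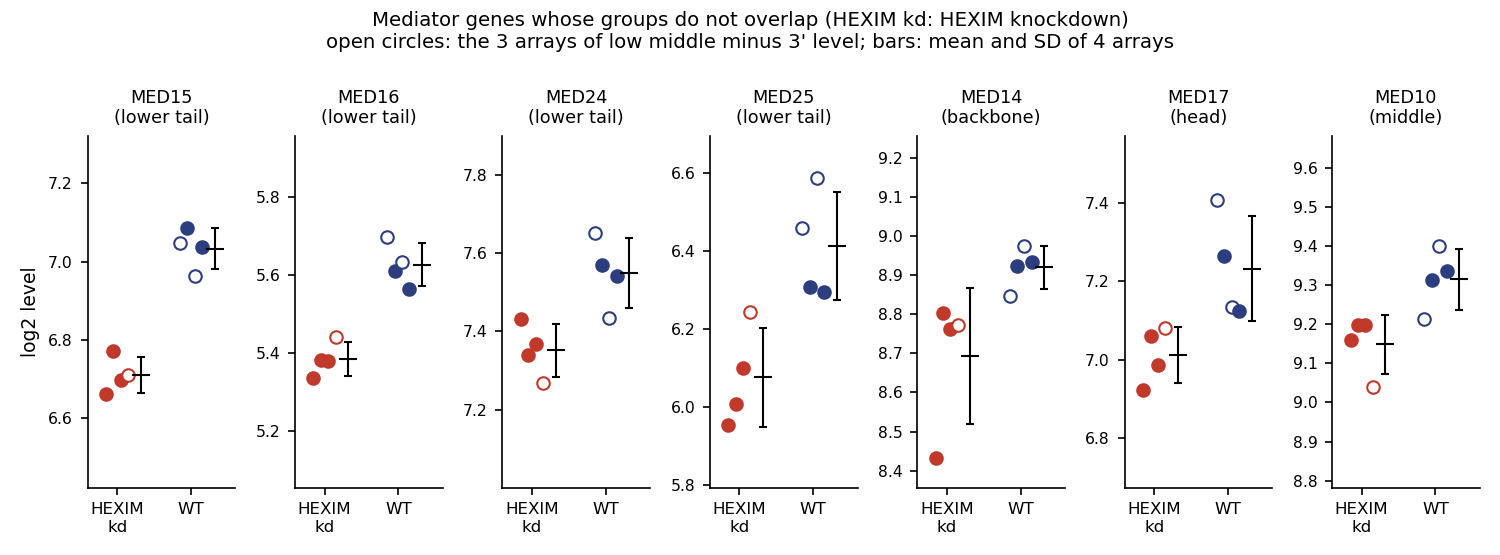
Log2 levels (vertical axis, each panel spanning the same range) of the 7 Mediator genes whose groups do not overlap, with HEXIM knockdown arrays left of WT arrays; points are arrays, open points the 3 arrays of low middle minus 3' level, and bars the mean and SD of 4 arrays. MED15 and MED16 show the widest gaps, at 0.19 and 0.12, whereas the groups of MED24 nearly touch and 1 HEXIM knockdown array of MED14 lies at 8.43, below all others.

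The backbone subunit MED14 joins head, middle and tail. It read 8.43, 8.80, 8.76 and 8.77 in HEXIM knockdown arrays, against 8.85, 8.92, 8.97 and 8.93 in WT arrays. The groups did not overlap, but HEXIM knockdown replicate 1 alone lay far below the other arrays. The log2 fold change was -0.23 with this array (SE 0.10, limma adjusted p = 0.680) and -0.14 without it.

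In the head module, which contacts the polymerase and general factors, 5 of 6 genes had a log2 fold change below 0, with a median of -0.11. MED17, the scaffold of the head and a contact of Dif and of the heat shock factor in flies, read 6.92, 7.06, 6.99 and 7.08 in HEXIM knockdown arrays, against 7.41, 7.27, 7.13 and 7.12 in WT arrays. It was the only head gene with separated groups, 0.04 apart, and its log2 fold change was -0.22 (SE 0.09, limma adjusted p = 0.610). MED18 and MED20 pair with each other and with MED8 in a movable part of the head in yeast. Their log2 fold changes were -0.18 (SE 0.09) for MED18, -0.06 (SE 0.11) for MED20 and -0.05 (SE 0.10) for MED8, and all 3 had overlapping groups. MED8 took the value 0.10 without the 3 arrays of low middle minus 3' level. MED6, which links head and middle, stood at -0.16 (SE 0.10), and MED11, the partner of MED22 in yeast, at 0.06 (SE 0.18), or -0.05 without the 3 arrays of low middle minus 3' level.

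The middle module gave the widest errors. Of its 8 genes, 5 lay below 0 and 3 above, with a median of -0.04 and standard errors of 0.08 to 0.28. MED10, a small subunit of the core, was the only one with separated groups, at 9.16, 9.20, 9.20 and 9.04 in HEXIM knockdown arrays, against 9.21, 9.31, 9.40 and 9.34 in WT arrays. These groups were 0.01 apart, with a log2 fold change of -0.17 (SE 0.08, limma adjusted p = 0.721).

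MED21, which forms a hinge with MED7 in yeast, and MED31, a conserved subunit needed for early embryonic patterning in flies, had the most positive values after skd. MED21 read 10.13, 10.15, 10.18 and 9.70 in HEXIM knockdown arrays, against 9.30, 10.19, 9.91 and 10.33 in WT arrays, a log2 fold change of 0.11 (SE 0.22). MED31 read 7.90, 7.64, 7.46 and 6.79 in HEXIM knockdown arrays, against 6.93, 7.64, 7.07 and 7.81 in WT arrays, a log2 fold change of 0.08 (SE 0.28). For both genes the 3 arrays of low middle minus 3' level held the lowest values of the 8, irrespective of genotype. Without these arrays the log2 fold changes were -0.10 for MED21 and -0.06 for MED31. MED7, at 0.06 (SE 0.20), took the value -0.09 without them. MED9 was read together with the gene CG42518 by a pair of shared probe sets, whose log2 fold changes were 0.18 (SE 0.24) and 0.17 (SE 0.21) with overlapping groups.

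MED26, the subunit tied to elongation in human cells, read 10.58, 10.69, 10.82 and 11.14 in HEXIM knockdown arrays, against 10.93, 10.67, 11.09 and 10.58 in WT arrays. Its log2 fold change was -0.01 (SE 0.15, 95% confidence interval -0.36 to 0.34), and its 3 highest values belonged to the 3 arrays of low middle minus 3' level. Without these arrays it was 0.07. The MED26 probe set is of a type that may also read other transcripts. MED4, which pairs with MED9 in yeast, read 5.22, 5.50, 5.34 and 5.10 in HEXIM knockdown arrays, against 5.31, 5.45, 5.49 and 5.44 in WT arrays, with overlapping groups and a log2 fold change of -0.13 (SE 0.10). The remaining middle genes were MED1, a partner of nuclear receptors and GATA factors, at -0.08 (SE 0.13), and MED19, a partner of Hox proteins in flies, at -0.15 (SE 0.20). Without the 3 arrays they stood at -0.21 for MED1 and -0.04 for MED19.

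The genes of the upper tail overlapped between the groups. MED27, MED28 and MED30 had log2 fold changes of -0.12 (SE 0.15), -0.04 (SE 0.20) and -0.10 (SE 0.10), and without the 3 arrays of low middle minus 3' level that of MED28 was -0.10 and that of MED30 was -0.03. The remaining upper tail subunit ix, known for its work with Doublesex in female differentiation, stood at -0.03 (SE 0.11) with overlap.

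**Figure D3:**
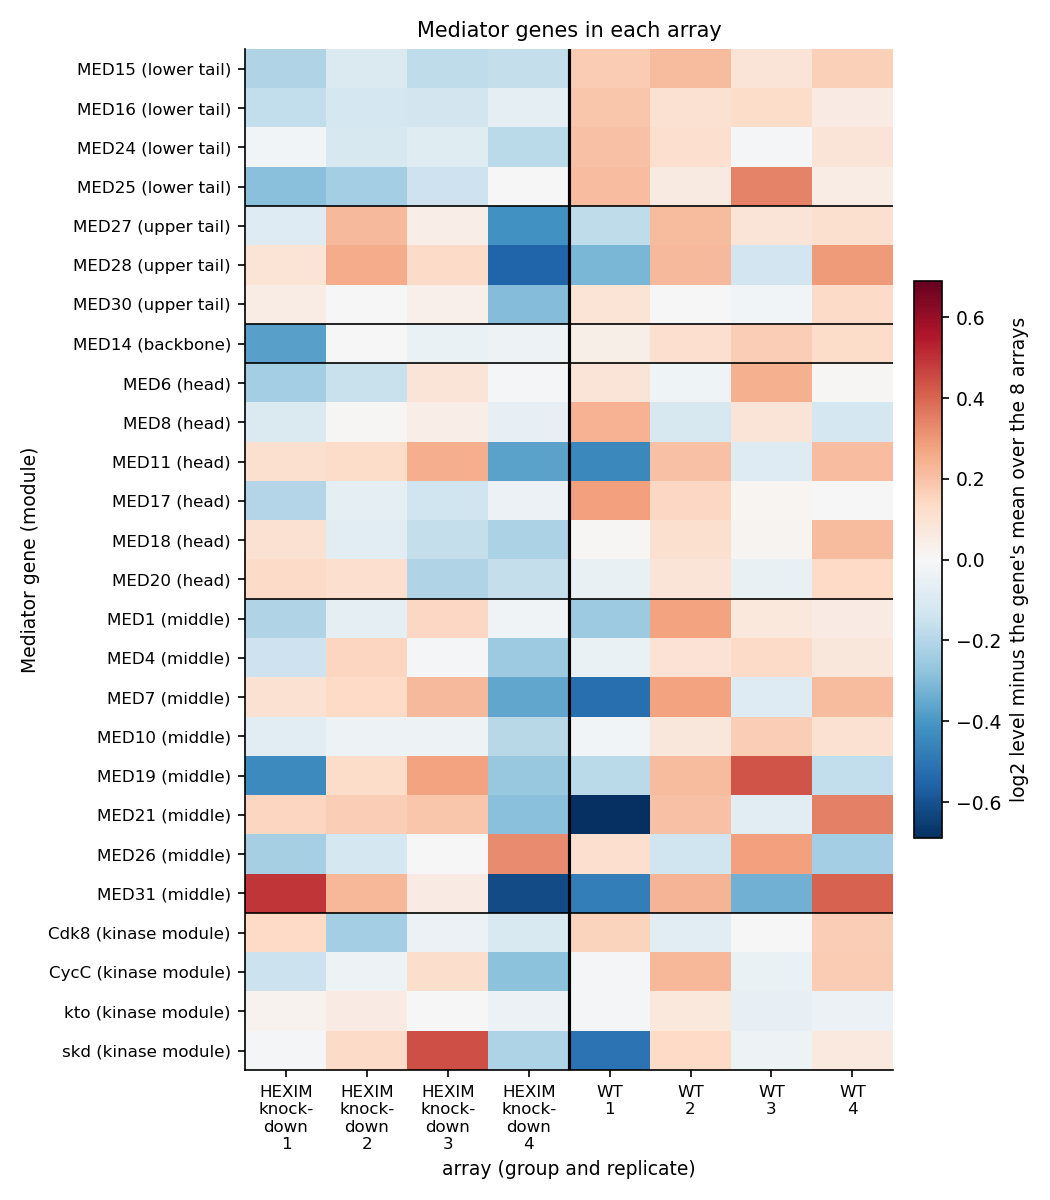
Log2 level of each Mediator gene (rows, by module) in each array (columns, HEXIM knockdown replicates 1 to 4, then WT replicates 1 to 4) minus the mean of the gene over the 8 arrays. Averaged over the 4 rows of the lower tail, each HEXIM knockdown array lies below 0 and each WT array above. Each of these rows had separated groups, so their average had to separate as well. In MED11, MED21, MED31, MED7, MED28 and skd the lowest arrays are HEXIM knockdown replicate 4 and WT replicates 1 and 3.

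In the kinase module no gene had separated groups. All 4 had overlapping groups, with 2 log2 fold changes above 0 and 2 below, and a median of -0.05. kto, studied with skd in the developing eye, read 7.32, 7.35, 7.29 and 7.25 in HEXIM knockdown arrays, against 7.28, 7.36, 7.24 and 7.25 in WT arrays. With a log2 fold change of 0.02 (SE 0.07) and a 95% confidence interval of -0.13 to 0.17, kto was measured as precisely as MED15 and MED16.

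The brighter probe set of skd read 7.64, 7.78, 8.09 and 7.44 in HEXIM knockdown arrays, against 7.14, 7.78, 7.61 and 7.72 in WT arrays. Its log2 fold change of 0.17 (SE 0.18) was the highest of the members, and the dimmer probe set gave 0.23 (SE 0.32). Both are of a type that may also read other transcripts. WT replicate 1 was the lowest of the 8 arrays, and the log2 fold change was 0.09 without the 3 arrays of low middle minus 3' level.

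Cdk8, the kinase of the module, read 5.89, 5.52, 5.71 and 5.65 in HEXIM knockdown arrays, against 5.91, 5.68, 5.75 and 5.93 in WT arrays, a log2 fold change of -0.12 (SE 0.10). Its cyclin CycC read 6.87, 6.98, 7.14 and 6.74 in HEXIM knockdown arrays, against 7.01, 7.25, 6.97 and 7.19 in WT arrays, a log2 fold change of -0.17 (SE 0.11). The kinase and its cyclin both lay below 0, kto and skd above, and none of the 4 beyond the spread of its arrays.

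A part of the complex ordered the arrays as the control transcripts did. In 6 of the 26 genes (23.1%), namely MED11, MED21, MED31, MED7, MED28 and skd, the 3 arrays of low middle minus 3' level all lay below the other 5, and this held for 12.7% of all probe sets. MED26 alone showed the opposite order (3.85% of members), which 19.9% of all probe sets showed. The mean distance between the 3 arrays and the other 5 was -0.76 for MED31, -0.56 for MED21 and 0.38 for MED26, against 0.06 for MED15 and 0.14 for MED16. For the 7 genes that ordered the arrays in this way, the standard errors of the genotype difference were 0.15 to 0.28. Both sets of arrays hold both genotypes, so a gene with this order cannot have separated groups. With the middle minus 3' level as a covariate no member was called, and the lowest adjusted p from limma was 0.0715, for MED15.

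**Figure D4:**
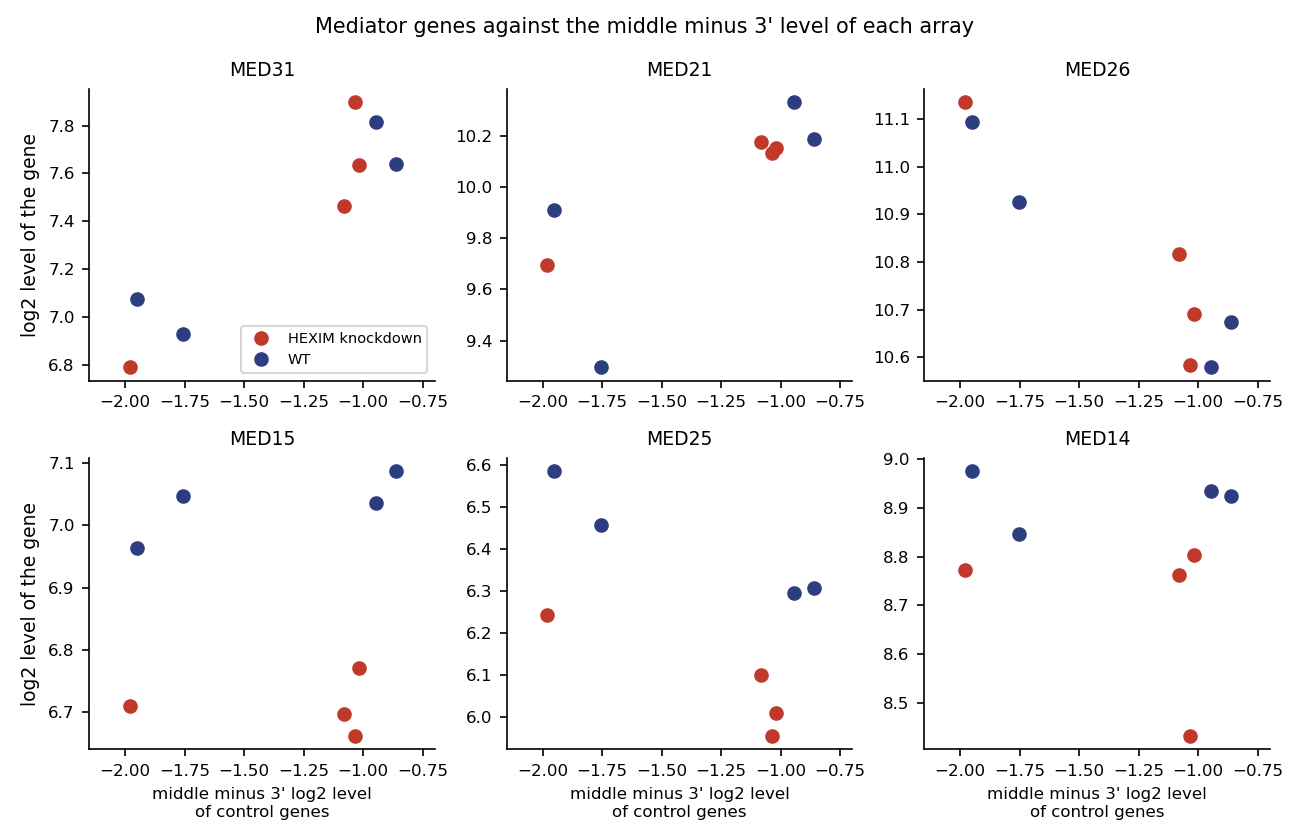
Log2 level of 6 Mediator genes (vertical axes) against the middle minus 3' log2 level of control genes in each array (horizontal axes, lower where probes in the middle read less), with HEXIM knockdown and WT arrays as points. MED31, MED21 and MED26 follow the horizontal axis. MED15, MED25 and MED14 are shown as members with separated groups, so their HEXIM knockdown arrays necessarily lie below WT arrays at both ends of it.

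Other parts of the transcription machinery were read beside Mediator, from 5 lists with 49 measured genes, Hexim included. None was called by limma, 12 were lower and 0 higher at an unadjusted p under 0.05, and the median log2 fold change was -0.10. The 12 are 24.5% of these genes, beside 4.4% of all probe sets. A log2 fold change below 0 was seen in 35 of them (71.4%, beside 55.4% of all probe sets), and lower values with separated groups in 9 (18.4%, beside 3.37%). The 6 measured of 12 subunits of RNA polymerase II all lay below 0, with a median of -0.25, and 3 of them, Polr2J (-0.33, SE 0.10), Polr2K (-0.29, SE 0.09) and Polr2H (-0.23, SE 0.08), had separated groups. Of the 18 general transcription factors, which assemble with the polymerase at the promoter, 12 lay below 0 with a median of -0.09, and Tbp (-0.25, SE 0.07), TfIIB and Taf5 had separated groups. Among the 11 genes of TFIIH and of other kinases of the polymerase, 9 lay below 0 and all overlapped. The 9 pausing and elongation factors had a median of -0.02, with spt4 (-0.38, SE 0.08, adjusted p = 0.181 from limma) and TfIIS (-0.31, SE 0.09) apart. The P-TEFb subunits Cdk9 and CycT stood at -0.16 (SE 0.11) and 0.22 (SE 0.55). CycT read 5.03 to 5.40 in the 3 arrays of low middle minus 3' level and 6.61 to 7.06 in the other 5, irrespective of genotype.

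Of the 9 measured factors that work with Mediator in flies, 6 lay above 0 and 3 below. The NF-kappaB factor Rel, which drives antimicrobial genes, had a log2 fold change of 0.83 (SE 0.22, limma adjusted p = 0.308), with 9.56 to 10.57 in HEXIM knockdown arrays and 8.97 to 9.52 in WT arrays, without overlap. Dif, which works through MED25 and MED16, stood at -0.04 (SE 0.14), and dl at 0.30 (SE 0.11). SREBP, a lipogenic factor that Cdk8 and CycC restrain in flies, stood at 0.35 (SE 0.14) with overlap. It and the 4 lipogenic genes listed with it all had log2 fold changes above 0, with a median of 0.36, and none was called or had separated groups. For these 4 genes WT replicate 3 was the lowest of the 8 arrays. It read 10.07 for ACC, 11.45 for FASN1, 10.21 for AcCoAS and 10.62 for Desat1. The fat body, where much of this synthesis takes place, had 7 of 8 markers above 0 as well (median 0.82), with 1.17 (SE 0.28) for Fbp1, whose groups did not overlap, and the part of these markers in the lipogenic values was not tested.

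**Figure D5:**
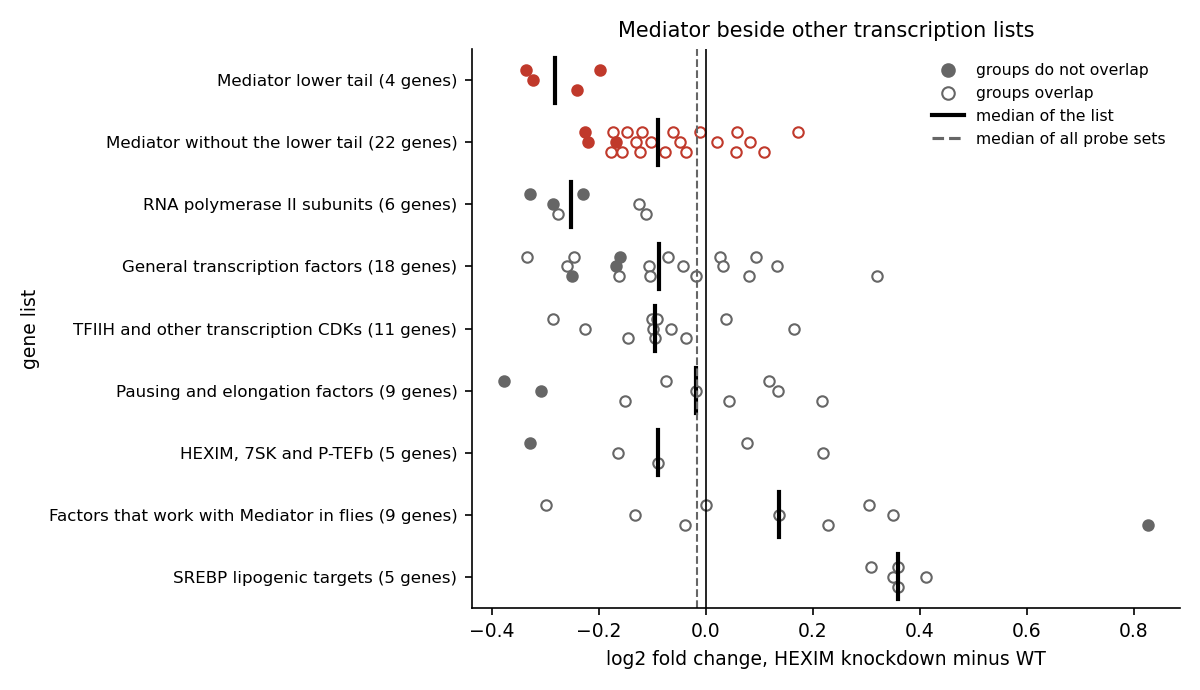
Log2 fold change (HEXIM knockdown minus WT, horizontal axis) of the genes of Mediator and of other transcription lists, with filled points for genes whose groups do not overlap, black bars for list medians and a dashed line for the median of all probe sets (-0.02); SREBP stands in both of the lowest lists. The median is -0.28 for the lower tail of Mediator, -0.25 for RNA polymerase II subunits and -0.09 for the other Mediator genes.

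The separated groups depended in part on the scaling of the arrays. After centring each array on its median, 4 members kept separated groups (MED15, MED16, MED17 and MED25), and after quantile normalization also 4 (MED15, MED16, MED24 and MED10), where 3.71% and 3.3% of all probe sets were apart in the lower direction. MED15 and MED16 were therefore separate under every scaling tried, and all 26 members kept the sign of their log2 fold change under both. With array weights, MED15 (-0.29, adjusted p = 0.0297) and MED25 (-0.35, adjusted p = 0.0384) were called by limma, where HEXIM knockdown replicate 2 carried a weight of 9.03 and 507 of all probe sets (2.7%) were called. Over all alternatives the adjusted p from limma was 0.0297 to 0.572 for MED15 and 0.0384 to 0.791 for MED25.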

How the data were processed

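The deposited table holds 1 log2 level for each probe set and array of the Affymetrix Drosophila_2 3' array, from 4 HEXIM knockdown and 4 WT samples. According to the submitters' processing notes the authors worked with Affymetrix Expression Console and RMA, while GCRMA stands in the methods; both give background-corrected, normalized log2 values, and these were used as deposited. The genome build is not given in the sources used here. The table lists 18952 probe sets; 183 are controls and were set aside, and 13646 of the other 18769 carry a single gene symbol, 402 several and 4721 none. Among the members, 5 probe sets are of the type that may read other genes (suffix s), those of MED6, MED26, MED31 and skd. Another 3 are of the type shared by transcripts of one gene (suffix a).

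limma 3.58.1 in R 4.3.3 (lmFit, eBayes) was fitted to all probe sets without a replicate block, and p-values were adjusted after Benjamini and Hochberg. Tables were made with pandas 2.3.3 and numpy 2.4.6, exact permutation tests with scipy 1.17.1 and figures with matplotlib 3.10.9, in Python 3.11.15. The fit was tested on simulated data with known changes before use.

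The members and lists were chosen with earlier results of these data known. Values in every array are given for members with separated groups, the 3 most positive and 3 most negative, the kinase module, and the brightest and dimmest probe set; of the other lists, up to 3 genes with the smallest p. Dif, CycT, TfIIB and ix were named for their role after their values were seen. Alternatives covered scaling, array weights, dim probe sets, the variance prior, a replicate block, a covariate for the middle minus 3' level, probe set choice and left-out arrays.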

Additional observations from a re-analysis of the deposited data

Results flagged for a closer look

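In groups of 4 arrays, 4 of 64 groups held 1 array far from the other 3, where chance alone would give about 1 in 20, or 3.2. MED14 read 8.43 in HEXIM knockdown replicate 1, against 8.76 to 8.80 in the other HEXIM knockdown arrays. MED21 read 9.70 in HEXIM knockdown replicate 4, against 10.13 to 10.18 in the others of the group, and MED30 read 6.48 in the same array, against 6.79 to 6.83. The average deviation of the head module was -0.144 in HEXIM knockdown replicate 4 as well, and -0.03 to -0.01 in the other HEXIM knockdown arrays. This array has the lowest middle minus 3' level of control transcripts of the 8, and its part in these values was not tested.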

How the results depend on the processing

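Over all probe sets, 507 were called with array weights, 128 with the middle minus 3' covariate, 3 without the 3 arrays of low middle minus 3' level, 1 with the replicate block, and 10 to 48 without 1 array, beside 48 as reported. Leaving out HEXIM knockdown replicate 1 or 4 gave 46 and 48, and leaving out HEXIM knockdown replicate 2 or 3 or any WT array gave 10 to 13. Correlations of same-numbered arrays were -0.11, 0.57, -0.19 and -0.72. HEXIM knockdown replicate 4 gave 0.67 and 0.72 with WT replicates 1 and 3, the other arrays of low middle minus 3' level. With this split among the arrays, the correlations cannot settle whether the replicate numbers pair them. Of the Mediator genes, 2 were called with array weights, 6 reached an unadjusted p under 0.05, and 0 were called under the other fits; of the other transcription and partner lists, 4 were called with array weights (Hexim, spt4, dl and Rel). Separated groups were counted in 4 members with median centring (5.53% of all probe sets) and 4 with quantile normalization (5.32%). They were counted in 11 without the 3 arrays (26.6%) and 7 to 8 without 1 array (6.83% to 11.6%). Leaving arrays out cannot make separated groups overlap, so those counts could not fall below 7. The median of the members stayed below 0 throughout, from -0.16 to -0.04, with array weights at -0.04.

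The sign of single members turned as follows. With array weights the log2 fold changes were 0.015 for MED20, 0.046 for MED8, 0.043 for MED19, 0.030 for MED4, 0.068 for MED27 and 0.088 for MED28. With the covariate MED26 gave 0.032. Without the 3 arrays the values were -0.045 for MED11, 0.10 for MED8, -0.10 for MED21, 0.070 for MED26, -0.061 for MED31 and -0.093 for MED7. Without 1 array they ranged from -0.080 to 0.19 for MED11, -0.097 to 0.025 for MED8, -0.17 to 0.00325 for MED1, -0.10 to 0.24 for MED21, -0.12 to 0.080 for MED26, -0.068 to 0.30 for MED31, -0.11 to 0.18 for MED7, -0.21 to 0.000691 for MED27 and -0.15 to 0.14 for MED28. The cause was not tested. Members with an unadjusted p under 0.05 from limma numbered 3 with either other variance prior (6.62% and 6.59% of all probe sets). There were 3 with the replicate block (5.69%), 3 without the 3 arrays (8.4%) and 3 to 5 without 1 array (5.31% to 10.4%). The covariate gave 9 (12.1%) and array weights gave 10 (18.3%), and without dim probe sets 5 of 25 members remained under it (10.2% of probe sets kept). None of the 7 members with separated groups changed sign under the 17 alternative fits, but most of these could not change it. Leaving out, weighting or blocking arrays keeps the sign of separated groups, as do the variance priors and the filter on dim probe sets. Only median centring, quantile normalization and the covariate could have turned it.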
